A study of Mus musculus with 6 samples.

Results

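Potassium channel genes were examined in the colon of NHE3-/- mice, which lack the sodium-hydrogen exchanger encoded by Slc9a3, and of their NHE3+/+ littermates. Members were all genes whose symbol begins with Kcn and which a probe set of the array names alone. This gave 84 of the 18194 genes named in that way. Of the 84 genes, 81 encode channel subunits: 31 voltage-gated, 8 calcium- and sodium-activated, 15 inward rectifier and 12 two-pore pore subunits, and 15 accessory subunits. The other 3 symbols, Kcnq1ot1, Kcnmb4os1 and Kcnmb4os2, name RNAs that are not subunits and are given apart. Each gene was read by its probe set of highest mean signal over the 6 arrays.

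There were 3 Affymetrix MOE430 2.0 arrays for each genotype, from mice aged 6 to 8 weeks, with colon tissue dissected whole and no treatment. The labels name no strain or sex, and nothing in them ties 1 array to 1 animal. The p-values therefore set the difference between genotypes against the scatter of these samples, and that scatter may be technical. They also do not say which part of Slc9a3 is disrupted or in which cells. The deposited signal is linear and without a unit, and signals of different genes cannot be set against each other because each rests on its own probes.

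Potassium channels let potassium leave cells down its gradient and so hold the membrane potential negative. In colonic epithelium, basolateral channels recycle the potassium brought in by the sodium pump and the sodium-potassium-chloride cotransporter, which supports chloride secretion and sodium uptake. Luminal channels release potassium into the gut lumen, a route that aldosterone is known to enhance. In the muscle wall and the enteric plexus, other members set the rhythm of contraction and the firing of neurons.

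Log2 correlations between arrays were 0.969 to 0.970 within NHE3+/+, 0.965 to 0.973 within NHE3-/- and 0.932 to 0.959 between genotypes. Two-sided comparisons used limma over the whole array, with p-values adjusted by the Benjamini-Hochberg method over 27024 probe sets and a threshold of 0.05. The brightest probe set of Xist, an RNA made in female cells, read 2639 and 1929 on the first 2 NHE3-/- arrays and at most 12.3 on the other 4, so each called member is also given with NHE3-/- array 3 alone against NHE3+/+. The brighter Slc9a3 probe set had 6075 ± 531 in NHE3+/+ and 4634 ± 1196 in NHE3-/- colon (SD, n = 3 each; adjusted p = 0.12). A second Slc9a3 probe set, 266 ± 137 and 449 ± 173, went the other way (log2 fold change 0.76, adjusted p = 0.23), and where either lies relative to the disrupted part is not known here, so neither checks the genotype. Of 10 smooth muscle markers, 6 passed the filter. Acta2, smooth muscle actin, read 779.5 to 1324 and Myh11, the smooth muscle myosin heavy chain, 74.2 to 186, while Cnn1, Lmod1, Synpo2 and Myocd were below the filter. Median signals of whole arrays lay between 97.8 and 121.4. Of 10 markers of enteric neurons, 4 passed the filter, and of 5 markers of enteric glia, 1 did.

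Of the 81 subunit genes, 25 passed the filter, and 5 of these fell in NHE3-/- colon while 0 rose. The genes that fell were Kcnn4, Kcnk6, Kcnh3, Kcne3 and Kcnk1. The 5 are 20.0% of the subunits tested, and over all probe sets tested 6.24% were called lower and 4.97% higher. Among the 25 genes tested, Kcnmb4 was the one with a higher signal in NHE3-/- colon at an unadjusted limma p under 0.05 (unadjusted p = 0.0232, adjusted p = 0.116, limma across all probe sets). All 5 were above the filter cut-off in both genotypes, whereas 4 of the 25 tested genes were above it in 1 genotype only. Leaving out 1 array gave 2 members lower without NHE3-/- array 3, 3 without NHE3+/+ array 3 or NHE3-/- array 1, and 4 or 5 without the others. The log2 fold change was under 0 for 14 of the 25 genes and for 59.9% of all probe sets tested. The median log2 fold change of the 25 genes was -0.06, and that of all probe sets tested was -0.10.

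**Figure D1:**
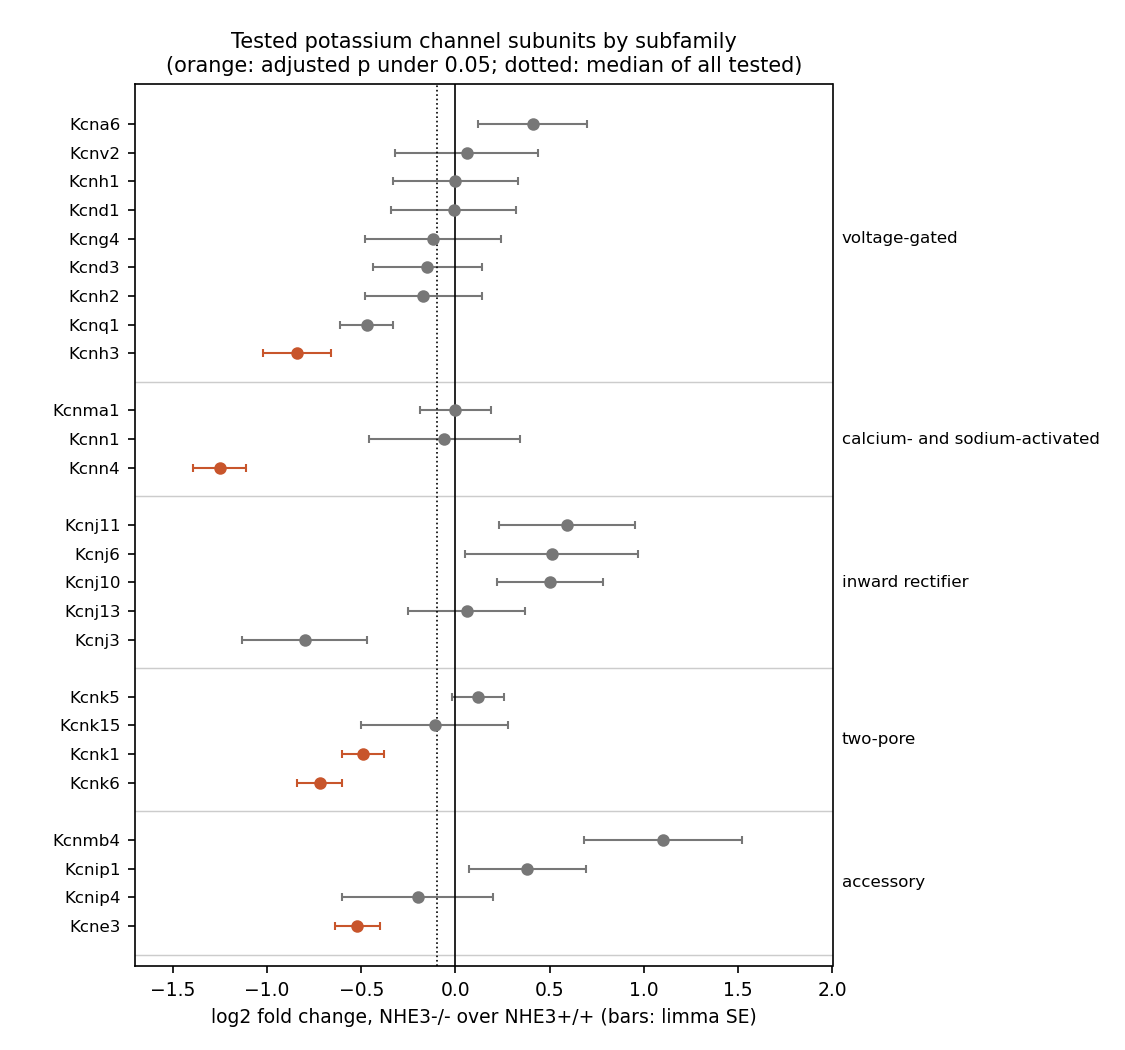
Log2 fold change of NHE3-/- over NHE3+/+ colon for the 25 subunit genes tested, grouped by subfamily; points are limma estimates from 3 arrays per genotype, bars are limma standard errors, and the dotted line marks the median of all probe sets tested, -0.10. Orange points, from Kcnk1 at -0.49 to Kcnn4 at -1.25, passed the adjusted threshold, and no point to the right of 0 did.

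Most of the members that fell were bright. Of the 6 subunit genes with a mean signal of 500 or more, 4 fell and 0 rose, with a median log2 fold change of -0.50 and standard errors of 0.11 to 0.14. These 6 genes, Kcnn4, Kcnk6, Kcnk1, Kcne3, Kcnq1 and Kcnk5, include channels known from the colonic epithelium. Over all probe sets as bright, 9.58% were called lower and 10.5% higher, with a median of -0.03. Among the 19 dimmer members tested, Kcnh3 alone was called, and standard errors reached 0.46. The 500 signal units that split the 2 groups were chosen after the values were seen.

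**Figure D2:**
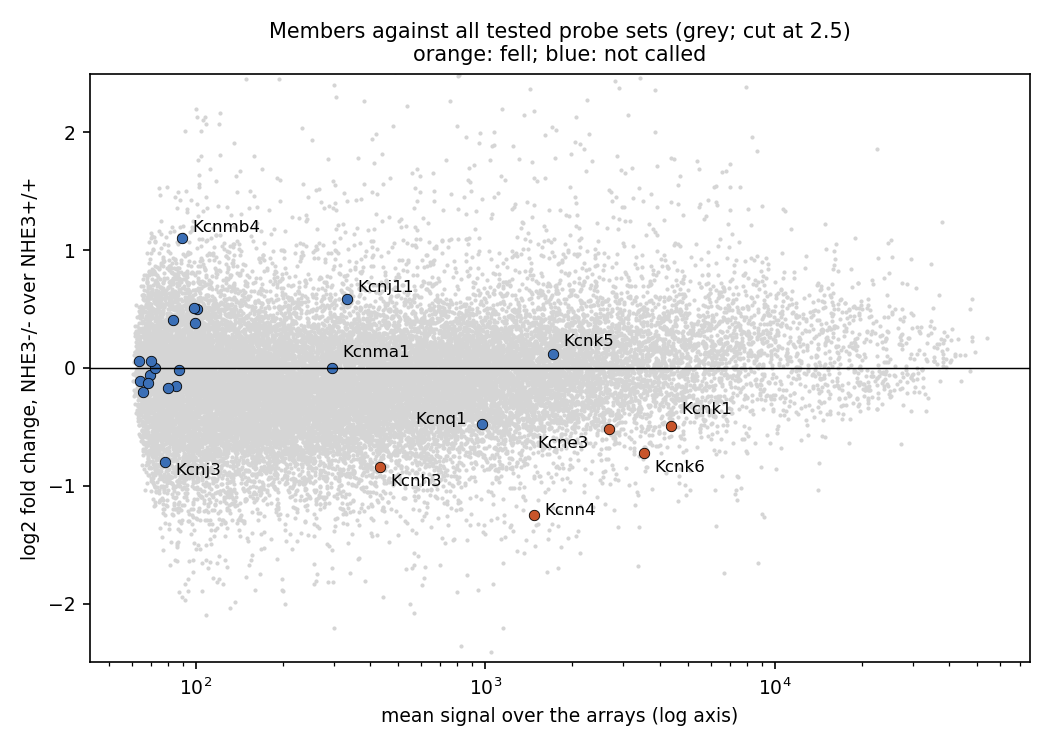
Mean signal over the 6 arrays (log axis) against log2 fold change of NHE3-/- over NHE3+/+ for the 25 subunit genes tested (coloured points, orange where they fell) and all 27024 probe sets tested (grey). Of the 6 members at 500 signal units or more, Kcnk5 at 0.12 is the one above 0.

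Kcnn4 encodes the intermediate-conductance calcium-activated potassium channel of epithelial and immune cells, which drives chloride secretion when cell calcium rises. Its signals were 1942, 2014 and 2308 on NHE3+/+ arrays 1, 2 and 3, and 831, 1036 and 737 on NHE3-/- arrays 1, 2 and 3. The lowest NHE3+/+ array read well above the highest NHE3-/- array. The mean fell from 2088 ± 194 to 868 ± 153 (SD, n = 3 each), 0.416 of the NHE3+/+ level. The log2 fold change was -1.25 (SE 0.14, adjusted p = 0.00044). A second Kcnn4 probe set also fell, with 1054, 965 and 876 against 479, 571 and 411 and a difference of -0.95 on the log2 scale (SE 0.16, adjusted p = 0.00354). With NHE3-/- array 3 alone the representative probe set had -1.46 (adjusted p = 0.00242). Kcnn4 passed the threshold under each of 15 alternative settings, with log2 fold changes from -1.46 to -1.13.

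No other calcium-activated pore subunit passed the test. Kcnma1, the pore of the large-conductance calcium-activated channel that carries potassium secretion in the distal colon, had signals of 317, 253 and 316 in NHE3+/+ and 350.3, 266 and 273 in NHE3-/- colon. The 2 groups overlap, and the log2 fold change was 0.00 (SE 0.19, 95% interval -0.42 to 0.42, adjusted p = 0.997). Other Kcnma1 probe sets past the filter had 0.43 (adjusted p = 0.217) and -0.39 (adjusted p = 0.543). Kcnmb4, an accessory beta subunit of that channel, had 11.4, 110.3 and 33.6 in NHE3+/+ and 104, 139 and 137 in NHE3-/- colon. One NHE3+/+ array reached the NHE3-/- range, and the log2 fold change of 1.10 (SE 0.42) did not pass (adjusted p = 0.116). Without that array, NHE3+/+ array 2, it was 1.58 (adjusted p = 0.0316). Lrrc26, a gamma subunit of the same channel outside the Kcn symbols, read 2270.1 in NHE3+/+ and 2927 in NHE3-/- (log2 fold change 0.39, SE 0.16, adjusted p = 0.138). Kcnn1, a small-conductance calcium-activated channel, had -0.06 (SE 0.40). Its relative Kcnn2 read 51.5, 57.5 and 37.6 against 28.1, 82.2 and 48.8. Kcnn3 read 8.70, 18.3 and 23.3 against 11, 31.3 and 24.1. Both small-conductance channels overlap between genotypes and were below the filter.

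The 2-pore channels give a steady background potassium conductance. Kcnk6 and Kcnk1, which encode closely related channels of the TWIK group, both fell. Kcnk6 signals were 4775, 4248 and 4198 on NHE3+/+ arrays and 2920.2, 2799 and 2296 on NHE3-/- arrays. The groups lie apart, at 4407 ± 319 and 2672 ± 331 (SD, n = 3 each), and the log2 fold change was -0.72 (SE 0.12, adjusted p = 0.00366). The Kcnk6 call held under each of 15 alternatives, with NHE3-/- array 3 alone at -0.93 (adjusted p = 0.0103) and the highest adjusted p at 0.0499, without a mean-variance trend.

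Kcnk1 read 5713, 4824 and 4803 in NHE3+/+ and 3574, 3859 and 3416 in NHE3-/- colon. These groups also lie apart, at 5113 ± 519 and 3616 ± 224 (SD, n = 3 each), and the log2 fold change was -0.49 (SE 0.11, adjusted p = 0.0155). The other Kcnk1 probe set read 2263, 1566 and 1482 against 1532, 1587 and 1398, overlapping, with -0.21 (SE 0.16, adjusted p = 0.43). The Kcnk1 call was lost without NHE3-/- array 1 (-0.49, adjusted p = 0.0508) or array 3 (-0.45, adjusted p = 0.055). It was also lost with NHE3-/- array 3 alone (-0.57, adjusted p = 0.0688), with medians set equal on all arrays (-0.37, adjusted p = 0.159) and without a mean-variance trend (adjusted p = 0.0951).

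Kcnk5, an alkaline-activated 2-pore channel of transporting epithelia, did not pass the test. Its signals were 1606, 1584 and 1700.2 in NHE3+/+ and 2062, 1408 and 1917 in NHE3-/- colon. The NHE3-/- arrays lie on both sides of the NHE3+/+ arrays. The log2 fold change was 0.12 (SE 0.14, 95% interval -0.20 to 0.44, adjusted p = 0.637), and a second probe set had 0.27 (SE 0.17, adjusted p = 0.34). Of the 12 2-pore genes, 4 were tested, the last being Kcnk15 at -0.11 (SE 0.39).

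Kcnq1 and Kcne3 encode the pore and the accessory subunit of the cAMP-activated basolateral channel of the colonic crypt. Kcne3 fell, from 3507, 2871 and 3054 in NHE3+/+ to 1949, 2420.2 and 2198 in NHE3-/- colon. The groups do not overlap, at 3144 ± 327 and 2189 ± 236 (SD, n = 3 each), and the log2 fold change was -0.52 (SE 0.12, adjusted p = 0.0214). Kcnq1 had 1086, 1006 and 1334 in NHE3+/+ and 846, 780.1 and 800.3 in NHE3-/- colon. Its groups do not overlap either, but the log2 fold change of -0.47 (SE 0.14, 95% interval -0.78 to -0.17) lay just outside the threshold (adjusted p = 0.0503). Groups that do not overlap, with NHE3-/- lower, were found for 7 of the 25 members and for 20.1% of all probe sets tested.

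Both genes lie close to the threshold. For Kcne3 the call was lost without NHE3+/+ array 1 (-0.44, adjusted p = 0.0598) or array 3 (-0.54, adjusted p = 0.0508) and without NHE3-/- array 1 (-0.44, adjusted p = 0.0789) or array 3 (-0.52, adjusted p = 0.0558). It was lost too with NHE3-/- array 3 alone (-0.51, adjusted p = 0.117), with medians set equal (-0.40, adjusted p = 0.168) and without a mean-variance trend (adjusted p = 0.102). Kcnq1 passed under 2 of 15 alternatives, a pseudocount of 100 (adjusted p = 0.0487) and a stricter filter (adjusted p = 0.039), and with NHE3-/- array 3 alone it had -0.49 (adjusted p = 0.214). Every one of the 15 alternatives gave a negative log2 fold change for both genes.

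**Figure D3:**
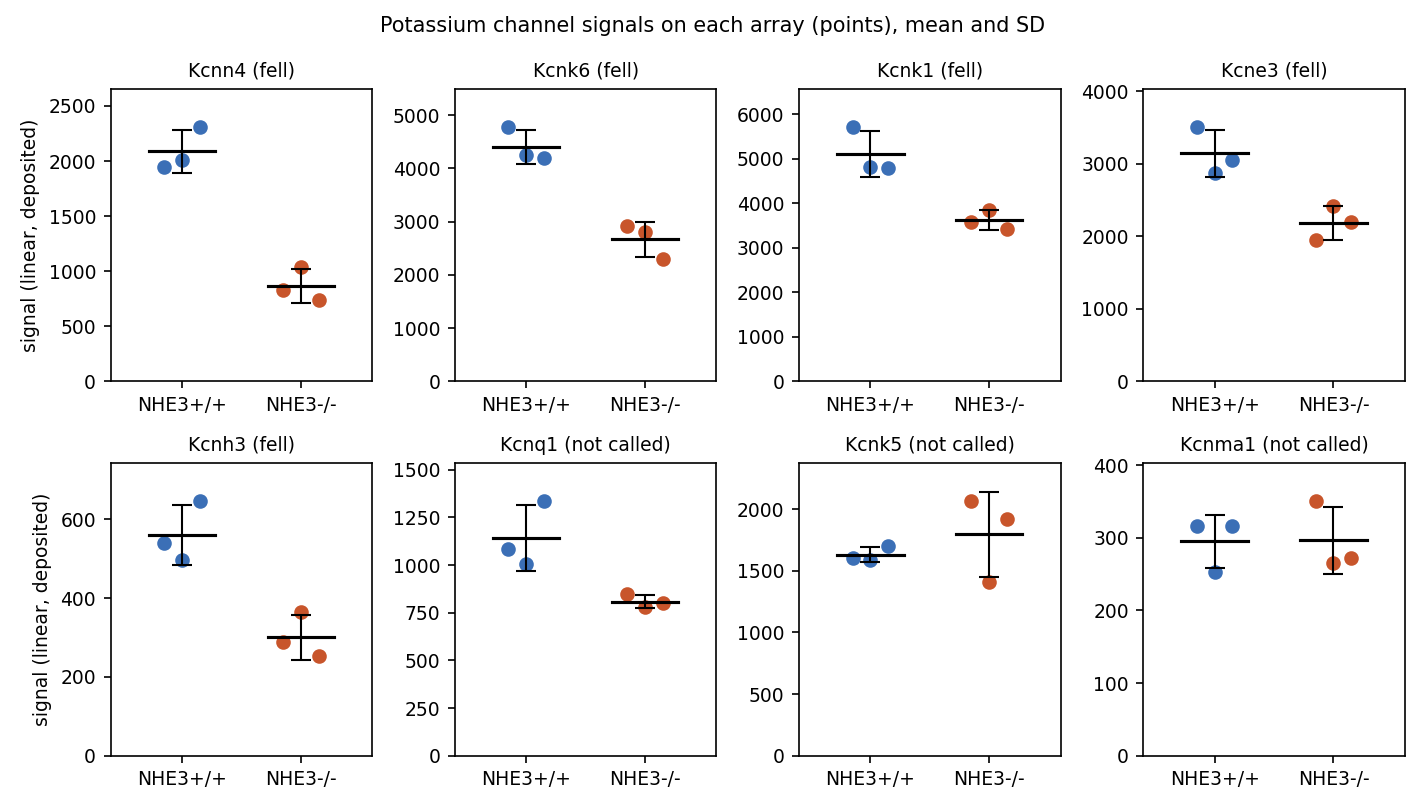
Deposited signal (linear scale) of 8 potassium channel genes on the 3 NHE3+/+ (blue) and 3 NHE3-/- (orange) arrays; each point is 1 array, the horizontal line is the mean and the bar the SD. For Kcnn4, Kcnk6, Kcnk1, Kcne3, Kcnh3 and Kcnq1 every NHE3-/- point lies below every NHE3+/+ point, while for Kcnk5 and Kcnma1 the points overlap.

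Differences between members on the same array compare the changes of 2 members. With 3 against 3 arrays, overlapping groups do not show that both changed by the same factor. On the log2 scale, Kcnn4 minus Kcnq1 was 0.82, 0.98 and 0.78 on NHE3+/+ arrays and -0.02, 0.40 and -0.11 on NHE3-/- arrays, a change of -0.77. The 2 groups do not overlap, with the NHE3-/- arrays lower. Kcnq1 minus Kcne3, the 2 partners of 1 channel, changed by 0.04, from -1.44 ± 0.25 to -1.40 ± 0.21 (SD, n = 3 each), with overlapping groups (exact permutation test, two-sided p = 0.7). Kcnk1 minus Kcnk6 changed by 0.23 and Kcnk5 minus Kcnk6 by 0.84, both without overlap. For Kcnn4 minus Kcnq1 and these 2 pairs the exact permutation test gave p = 0.1, the smallest that 3 against 3 arrays allow, and 0.133 after Benjamini-Hochberg adjustment over the 4 pairs. The pairs were chosen after the values were seen, and the level of such a difference has no meaning, since each gene has its own probes.

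Promoter sequences are shown for the called members of the bright group that have an entry, Kcnn4, Kcne3 and Kcnk1, with Kcnk5, which was not called, for comparison. Kcnk6, Kcnq1 and Kcnh3 have no entry. RefSeq promoters of build GRCm38.p6, from 250 bases before to 50 after a start, were found for 64 of the 84 members. The sequences below run 5′ to 3′, and capitals mark matches on either strand to the GC box GGGCGG or the AP-1 site TGANTCA. Kcnn4 lies at chr7:24370013-24370312 on the plus strand. The 2 starts of Kcne3 lie at chr7:100176420-100176719 and chr7:100178433-100178732, also on the plus strand. Kcnk1 lies at chr8:125994852-125995151 on the plus strand and Kcnk5 at chr14:20181733-20182032 on the minus strand.

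Kcnn4: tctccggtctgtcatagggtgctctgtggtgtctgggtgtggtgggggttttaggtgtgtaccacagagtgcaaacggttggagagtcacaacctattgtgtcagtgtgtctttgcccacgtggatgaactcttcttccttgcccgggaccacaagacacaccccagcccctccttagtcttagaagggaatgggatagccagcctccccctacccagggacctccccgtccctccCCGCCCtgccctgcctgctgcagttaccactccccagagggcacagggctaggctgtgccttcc
Kcne3, upstream start: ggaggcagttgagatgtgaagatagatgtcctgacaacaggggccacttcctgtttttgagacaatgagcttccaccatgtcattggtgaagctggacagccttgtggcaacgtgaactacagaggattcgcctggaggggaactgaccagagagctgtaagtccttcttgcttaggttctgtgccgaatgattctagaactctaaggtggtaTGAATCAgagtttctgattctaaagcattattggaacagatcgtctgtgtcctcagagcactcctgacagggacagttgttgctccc
Kcne3, downstream start: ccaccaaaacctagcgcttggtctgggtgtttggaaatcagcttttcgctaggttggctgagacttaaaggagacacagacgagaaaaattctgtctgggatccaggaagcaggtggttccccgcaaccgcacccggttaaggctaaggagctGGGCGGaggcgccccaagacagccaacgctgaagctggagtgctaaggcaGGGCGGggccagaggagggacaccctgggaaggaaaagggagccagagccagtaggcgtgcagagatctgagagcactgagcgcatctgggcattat
Kcnk1: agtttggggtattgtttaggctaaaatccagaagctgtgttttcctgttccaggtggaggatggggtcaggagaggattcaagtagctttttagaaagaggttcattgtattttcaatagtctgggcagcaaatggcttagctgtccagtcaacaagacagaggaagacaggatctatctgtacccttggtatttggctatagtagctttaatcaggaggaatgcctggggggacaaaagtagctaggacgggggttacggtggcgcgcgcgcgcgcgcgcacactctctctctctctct
Kcnk5: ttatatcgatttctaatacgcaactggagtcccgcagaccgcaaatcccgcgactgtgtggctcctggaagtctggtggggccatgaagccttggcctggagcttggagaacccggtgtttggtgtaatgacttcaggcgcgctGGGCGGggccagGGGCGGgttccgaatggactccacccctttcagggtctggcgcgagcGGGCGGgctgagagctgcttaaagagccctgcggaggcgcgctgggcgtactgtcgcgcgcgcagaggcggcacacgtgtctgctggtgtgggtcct

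The GC box was matched 1 time in the Kcnn4 window, 0 and 2 times in the upstream and downstream windows of Kcne3, 3 times in that of Kcnk5 and 0 times in that of Kcnk1. It was matched in 35.7% of the 32851 promoters of the table and in 43 of the 89 promoter windows of members. CpG pairs stood at 0.23 of the number expected from base composition in Kcnn4, 0.23 and 0.50 in the upstream and downstream windows of Kcne3, 0.59 in Kcnk1 and 0.88 in Kcnk5, against a median of 0.38 over all promoters. Neither strand of the 5 windows held the steroid receptor half-site AGAACA, which 19.0% of all promoters hold, the CDX site TTTATG (11.9%) or the cAMP response element TGACGTCA (1.79%). The TCF/LEF site CTTTGAT (3.73%) was not matched in them either. The AP-1 site TGANTCA (7.81% of all promoters) was matched 1 time, in the upstream window of Kcne3. The letters were searched on both strands, no match overlapped another in these windows, and neither a match nor its lack says anything of binding.

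Kcnh3, a voltage-gated channel of the ether-a-go-go family known mainly from forebrain neurons, fell as well. Its brightest probe set read 541, 498 and 646 in NHE3+/+ and 288, 364 and 252 in NHE3-/- colon. The groups lie apart, at 562 ± 76.4 and 302 ± 57.0 (SD, n = 3 each), and the log2 fold change was -0.84 (SE 0.18, adjusted p = 0.0146). The identifier of this probe set ends in _x_at, Affymetrix's mark for probes that may also bind other transcripts. Another Kcnh3 probe set without that mark read 354, 603 and 623 against 249, 239 and 209.8 (-1.05, SE 0.22, adjusted p = 0.0126). A further one read 298, 375 and 345 against 265, 379.6 and 379, with -0.00 (SE 0.19, adjusted p = 0.995), so the probe sets named for Kcnh3 disagree. Its call was lost without NHE3+/+ array 3 (-0.74, adjusted p = 0.0599), without NHE3-/- array 3 (-0.73, adjusted p = 0.0513) and without a mean-variance trend (adjusted p = 0.0514). With NHE3-/- array 3 alone it had -1.06 (adjusted p = 0.0347).

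The rest of the voltage-gated subunits were dim. Of 31, 9 passed the filter, and apart from Kcnh3 and Kcnq1 their log2 fold changes ran from -0.17 for Kcnh2 to 0.41 for Kcna6. Kcnh2, which repolarises heart and smooth muscle cells, read 88.6, 91.2 and 75.5 in NHE3+/+ and 45.3, 96.4 and 82.2 in NHE3-/- colon (SE 0.31, adjusted p = 0.769). Kcna6, a Shaker-type neuronal channel, read 72.2, 62.9 and 65.1 in NHE3+/+ and 95, 76.6 and 130.0 in NHE3-/- colon (SE 0.29, adjusted p = 0.395). These do not overlap, as was the case, with NHE3-/- higher, for 2 of the 25 members, Kcna6 and Kcnj10, and 12.2% of all probe sets tested. Kcnd3, an A-type channel, had overlapping signals of 102, 73.4 and 99.6 against 98.0, 75.2 and 64.8 (-0.15, SE 0.29).

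Inward rectifiers pass potassium more easily into than out of cells and set the resting potential of glia, muscle and endocrine cells. Of 15, 5 were tested and 0 were called. Kcnj11, the pore of the ATP-sensitive channel of endocrine cells and muscle, had 174, 339 and 223 in NHE3+/+ and 266, 255 and 737 in NHE3-/- colon. Its highest value came from NHE3-/- array 3, and the log2 fold change was 0.59 (SE 0.36, adjusted p = 0.315). It was 0.12 (adjusted p = 0.834) without that array and 1.52 (adjusted p = 0.0288) with that array alone. Kcnj3, a G-protein-gated channel, had 105, 91.7 and 123 against 41.8, 28 and 81.6. The groups do not overlap, but -0.80 (SE 0.33) did not pass (adjusted p = 0.147), and Kcnj3 was above the filter cut-off in NHE3+/+ only. Kcnj10, the glial and basolateral channel, had 83.0, 52.5 and 103 against 122, 134 and 114 (0.50, SE 0.28, adjusted p = 0.275). Kcnj6, another G-protein-gated channel, had 16.4, 162 and 74.1 against 116, 73.5 and 151 (0.51, SE 0.46, adjusted p = 0.512). Other Kcnj6 probe sets past the filter differed in sign, at -0.27 (adjusted p = 0.631) and 0.21 (adjusted p = 0.738). Kcnj13, an epithelial channel, had 60.1, 46.5 and 80.2 against 72.8, 65.5 and 57.5 (0.06, SE 0.31). Signals of Kcnj6 and Kcnj13 overlap between genotypes.

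Of the 15 accessory subunits, 4 were tested, and Kcne3 alone passed. Besides Kcne3 and Kcnmb4 these were Kcnip1 and Kcnip4, calcium-binding partners of A-type channels. Kcnip1 had a log2 fold change of 0.38 (SE 0.31). Kcnip4 read 33.4, 138 and 56.7 in NHE3+/+ and 45.8, 47.0 and 73.2 in NHE3-/- colon, overlapping (-0.20, SE 0.40).

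The 56 subunit genes below the filter read no more than 163 on any array. Of 27 channels listed as known from colonic epithelium, muscle or nerve, 25 were on the array, 12 were tested, 4 fell and 0 rose. The 4 are Kcnn4, Kcnk6, Kcnk1 and Kcne3, which are already counted above, so the list is no separate evidence. It was drawn up with earlier results of these data known. Over all probe sets tested, 6.24% were called lower and 4.97% higher. Among those with a mean signal of 500 or more, as these 4 have, the shares were 9.58% and 10.5%. The 13 below the filter include Kcnn2, Kcnn3 and several channels of muscle and vessels. Kcnmb1, the smooth muscle beta subunit of the large-conductance channel, read 7.70, 93.6 and 10.2 in NHE3+/+ and 41.8, 72.6 and 13.9 in NHE3-/- colon. Its relative Kcnmb2 read 61.2, 68.6 and 52.2 against 102, 89.7 and 14.4. Kcnj8, the pore of the vascular ATP-sensitive channel, read 55.1, 38.9 and 24.1 against 83.6, 57.4 and 72.0. Kcnj8 is higher in NHE3-/- colon with no overlap, and the pair of beta subunits overlaps. Kcna5, a smooth muscle channel, read 33.6, 57.5 and 39.2 against 33.2, 24.9 and 8.90, lower with no overlap. Kcna1, a neuronal channel, read 27.8, 4.80 and 53.5 against 1.90, 5.00 and 106. Its T cell relative Kcna3 read 24.3, 56.3 and 20.5 against 49.6, 12.4 and 47.5. Both overlap, with NHE3-/- array 3 high for Kcna1. Kcnc4, a fast voltage-gated channel, read 20.3, 26.5 and 21.3 against 27.5, 11.1 and 94.8. Kcnab1, a beta subunit of Shaker-type channels, read 44.9, 14.5 and 17.5 against 43.4, 47.7 and 39.2. Neither separates the genotypes. Kcnj15, an epithelial inward rectifier, read 6.60, 57.3 and 42.3 against 11.8, 55.1 and 42.2. Kcnj16, another, read 57.9, 15.2 and 73.0 against 16, 18.1 and 64.6. These overlap as well. All of these signals lie near or under the array medians.

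Of the 13, Kcnq5, a slow voltage-gated channel of neurons and smooth muscle, read 13.3, 3.80 and 2.70 in NHE3+/+ and 37.6, 61.2 and 50.4 in NHE3-/- colon. Its other probe sets went the other way with overlapping groups. Their means were 24.9 and 22.0 in NHE3+/+ against 5.77 and 16.1 in NHE3-/- colon. Without a filter the representative Kcnq5 probe set had a log2 fold change of 1.09 (adjusted p = 0.0494), at signals under the array medians. Outside the list, Kcne2, a relative of Kcne3, read 63.3, 79.3 and 18.8 against 2.00, 12.3 and 5.70 (-1.09, adjusted p = 0.102 in that fit).

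Kcnq1ot1, the imprinted antisense RNA of the Kcnq1 locus, was the one tested symbol that names no subunit. Its brightest probe set read 313, 416 and 576 in NHE3+/+ and 233, 335 and 242 in NHE3-/- colon, with overlapping groups (-0.61, SE 0.23, adjusted p = 0.117). Both RNAs of the Kcnmb4 locus, Kcnmb4os1 and Kcnmb4os2, were below the filter.

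Potassium also moves through pumps and cotransporters. Of 7 such genes tested, Atp12a, the colonic proton-potassium pump that takes up luminal potassium, rose from a mean signal of 4203 to 43968 (log2 fold change 3.37, SE 0.15), and none fell. Slc12a2, the cotransporter that loads potassium and chloride across the basolateral membrane, had 7657 and 6384 (-0.27, SE 0.11, adjusted p = 0.151), and Slc12a7, a potassium-chloride cotransporter, had -0.06 (SE 0.11). Of 11 tested hormone and kinase regulators, 2 rose and 2 fell. Of all probe sets tested, 4.97% were called higher and 6.24% lower. Sgk1, an aldosterone-induced kinase, had 0.99 (SE 0.13) and Hsd11b2, the enzyme that inactivates glucocorticoids, 1.33 (SE 0.11). The kinases Wnk4 and Wnk1, which govern sodium and potassium transport, fell by 1.10 (SE 0.21) and 0.41 (SE 0.11) on the log2 scale. Of 5 tested channel partners, 0 were called.

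Markers of epithelial cell types did not all move the same way. For these and the other lists below, the shares over all probe sets tested were 6.24% called lower and 4.97% higher. Among probe sets with a mean signal of 500 or more, they were 9.58% and 10.5%. Of 9 tested markers of absorptive colonocytes, 5 rose and 0 fell, and their summed signal was 151986 to 186434 in NHE3+/+ and 200359.9 to 255662 in NHE3-/- colon. Markers of dividing and crypt base cells fell for 5 of 7 tested, with sums of 10366 to 13557 and 7926 to 9534 and with Olfm4 below the filter. The largest part of these sums is Pcna, with means of 5494 in NHE3+/+ and 4988 in NHE3-/- colon. Pcna was not called (log2 fold change -0.11, adjusted p = 0.725). Tuft cell markers fell for 2 of 4, with sums of 858 to 1036 and 517 to 646. Of 7 goblet cell markers 1 fell, Spdef, with overlapping sums of 214507 to 263729.6 and 211136 to 269494. Of 7 enteroendocrine markers Pyy rose and Chga fell. Their sums were 15620.2 to 16418 and 19385 to 22239 with Pyy, and 12241 to 13637 and 10543 to 12264, overlapping, without it. The part of these cell types in the lower Kcnn4, Kcnk6, Kcnk1 and Kcne3 signals was not tested. Immune cells also make Kcnn4. The B cell genes Cd79a, Cd79b and Ms4a1 had log2 fold changes of -1.13 (adjusted p = 0.0562), -1.23 (adjusted p = 0.0608) and -1.42 (adjusted p = 0.0784), and the plasma cell gene Jchain had 0.60 (adjusted p = 0.0574). The median of the 5 markers of B cells and plasma cells was -1.13, with 0 called and overlapping sums of 6166 to 7666 and 6213 to 10586. Jchain makes up most of these sums, with means of 4492 in NHE3+/+ and 7013 in NHE3-/- colon, so they say little of the B cell genes. T cell markers had a median of 0.03, with sums of 532 to 1303 and 718 to 776. Of 5 macrophage markers Cd14 rose, and the sums of the other 4 overlapped, at 947 to 1835 and 1019 to 1439.6. Of 4 mast cell markers Mcpt1 and Mcpt2 rose, while Cma1 had -0.79 (adjusted p = 0.214), and the sums of the list were 345 to 694 and 1457 to 2282. The part of immune cells in the Kcnn4 result was not tested. In whole tissue, fewer cells of a type and less RNA per cell cannot be told apart.

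Of the other lists, smooth muscle (6 tested), enteric neurons (4), enteric glia (1), pericytes and endothelium (5), T cells (5) and B cells and plasma cells (5) had 0 called. The same held for skeletal muscle (2 tested) and pancreas (3), and Kit fell among 4 tested markers of interstitial cells. The others of that list, Ano1 (0.06), P2ry1 (0.04) and Pdgfra (-0.30), were not called. Its sums overlapped, at 6515 to 7847 in NHE3+/+ and 6616 to 6724 in NHE3-/- colon. Adipose tissue had 2 of 2 lower, with sums of 479 to 2417 and 108 to 448, and red blood cell markers had 0 tested.

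**Figure D4:**
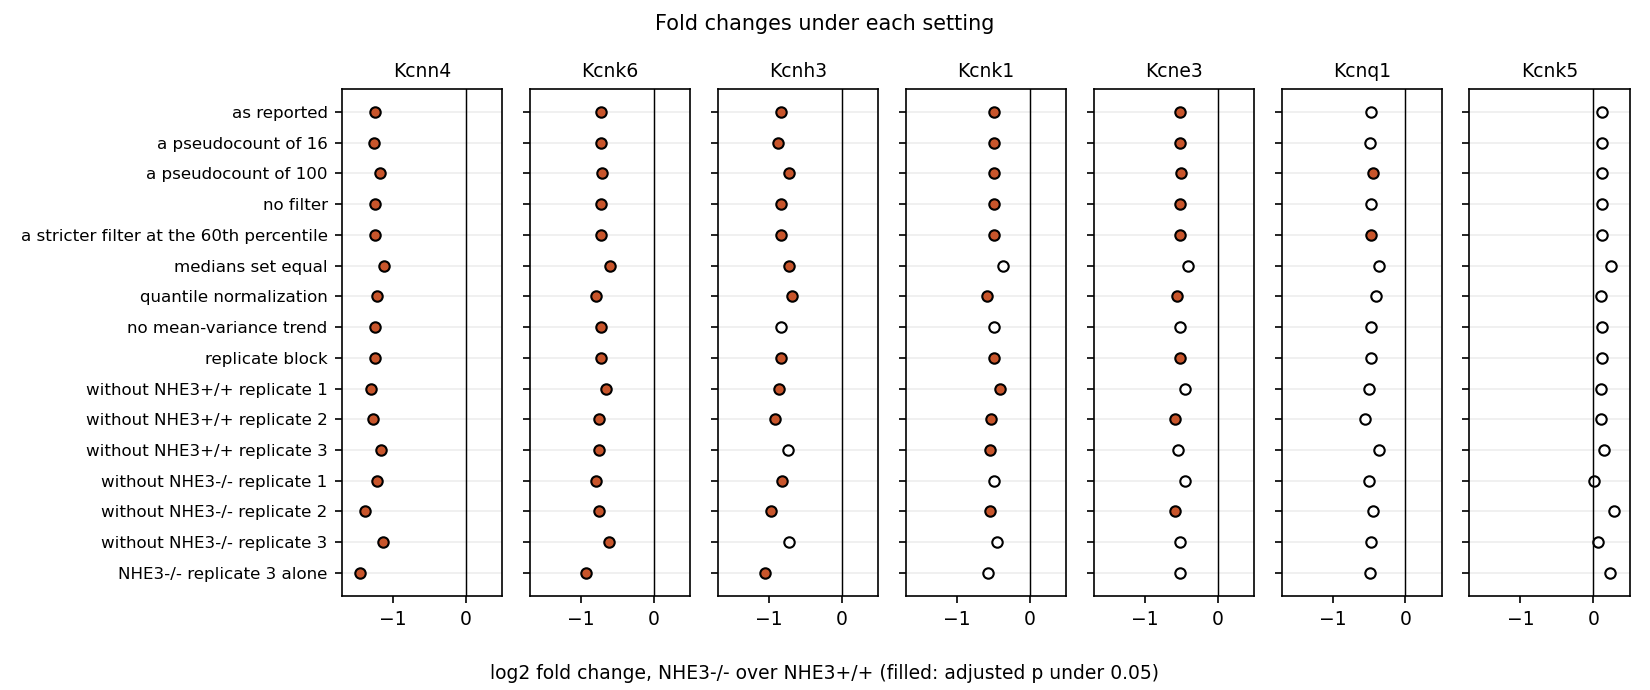
Log2 fold change of NHE3-/- over NHE3+/+ for 7 potassium channel genes (panels) as reported and under 15 alternative settings (rows); filled points passed an adjusted p of 0.05. Kcnn4 and Kcnk6 are filled in every row, Kcnh3 in all but 3, and Kcnq1 in 2 alternatives.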

How the data were processed

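RNA from whole colon of 3 NHE3+/+ and 3 NHE3-/- samples was read on Affymetrix MOE430 2.0 arrays, 1 per sample. The authors deposited intensity values on a linear scale, made with GCOS per the submitters' processing notes. Its version and settings are not stated in those notes. All 6 arrays have a mean of 500 once 2% is trimmed at either end, so they were used as scaled. Arrays have no read depth, and their number limits the precision.

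From 45101 probe sets, 64 controls and those with a mean log2(signal + 31.4) under the 40th percentile were left out; 31.4 is the 25th percentile of all values. Fold changes are on this log2 scale, which understates changes of dim genes. The comparison used limma 3.58.1 in R 4.3.3 (lmFit, eBayes with trend), tested on simulated data. Names came from the platform annotation; 34958 probe sets name 1 gene, 932 several and 9211 none, and all 84 member gene IDs matched RefSeq. Members and lists were chosen with earlier results of these data known. Named with every array were called members, all members of a list of colonic channels, and the 5 largest changes not called; others, such as Kcna6, Kcne2 and Kcnn1, were chosen after their values were seen. Replicate numbers did not pair arrays: deviations of same-numbered arrays correlated between -0.0376 and 0.0264. Alternatives covered pseudocount, filter, scaling, variance trend, replicate block, probe set choice and arrays left out.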

Additional observations from a re-analysis of the deposited data

How the results depend on the processing

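The count of 5 potassium channel members lower stayed within 1.5 times under a pseudocount of 16 or 100, no filter, a stricter filter, quantile normalization, the replicate block (5 lower, 0 higher, with no member's call changed) and other choices of probe set. The probe set choice that leaves out identifiers ending in _x_at or _s_at was added after seeing the data. The count was 3 with medians set equal, 2 without a mean-variance trend and 3 with NHE3-/- array 3 alone, where the single array is taken to scatter like the NHE3+/+ arrays. Leaving out 1 array gave 2 to 5 lower and 0 to 1 higher. The count of members higher was 1 without a filter (Kcnq5) and 1 with NHE3-/- array 3 alone (Kcnj11). The median log2 fold change of the members was 0.06 without a filter, -0.49 with the stricter filter (9 members tested), and 0.02 with medians set equal or with quantile normalization. It was -0.18 to 0.04 with 1 array left out. Setting medians equal moved the median of all probe sets from -0.10 to 0.01, and their split from 1342 higher and 1685 lower to 1595 and 738. The cause of these differences was not tested, apart from the fewer members that the stricter filter keeps. No called member changed direction under any of these settings. For the 19 tested members with a mean signal under 500, 3 arrays per genotype gave standard errors of 0.18 to 0.46.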
